A study of Mus musculus with 16 samples.

Results

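The genes described here encode components of the RAS-RAF-MEK-ERK cascade. They are 37 of the 52636 gene models in the count table, taken by symbol as adaptors, RAS proteins, RAF, MEK and ERK kinases, their regulators and the kinases that ERK activates, and found in the table through the Ensembl gene ids of the GENCODE mouse annotation. All 37 passed the filter on low counts, which left 12215 genes for testing. They fall into 8 roles: 7 adaptors and docking proteins, 3 exchange factors, 5 RAS family GTPases, 6 proteins that switch off or degrade RAS, 5 RAF kinases and RAF regulators, 3 MEK and ERK kinases, 6 effector kinases, and an ERK anchor with an ERK-regulated repressor.

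The cells were CRAFR26, a mouse embryonic stem cell line that carries a c-RAF kinase construct switched on by 4-hydroxytamoxifen (4OHT). Stem cells of this line are normally kept in N2B27 medium with LIF, the GSK3 inhibitor CHIR99021 and the MEK inhibitor PD0325901. For 48 h before the experiment the MEK inhibitor was replaced by 250 nM of the FGF receptor inhibitor PD173074 (PD17). The group called 0h had this PD17 culture and no 4OHT. The groups called 2h and 4h then had 250 nM 4OHT for 2 h or 4 h. The group called rev had 4 h of 4OHT followed by 2 h of MEK inhibitor, whose dose for this step is not given in the sources used here. The construct and the 48 h of PD17 were thus common to all 4 groups, every value comes from 2 clones (clone 4 and clone 8) of 1 line, and no culture with 4OHT vehicle alone or with 4OHT for as long as the rev group but without MEK inhibitor was among the samples analysed here. Each group held 4 libraries, 2 per clone. The labels do not say whether replicates of a clone were separate cultures, so p-values measure the spread between these samples, which may be partly technical.

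The cascade carries a signal from receptors at the membrane to the nucleus. Adaptors such as GRB2 and SHC1 bring exchange factors to RAS, which then binds GTP and recruits RAF; RAF phosphorylates MEK, MEK phosphorylates ERK, and ERK acts on transcription factors and on kinases of the RSK, MSK and MNK families. GTPase-activating proteins return RAS to its inactive state. In mouse embryonic stem cells FGF4 acts through this route, ERK activity favours exit from the naive state, and its inhibition is part of the usual culture medium. In the CRAFR26 line the construct feeds in at the level of RAF, below the receptors, adaptors, exchange factors and RAS.

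The assay was sequencing of rRNA-depleted total RNA, counted per gene. Library totals had a median of 6502783 counts; the shallowest, 2h clone 4 replicate 2, held 2172651 and the deepest, 2h clone 8 replicate 1, 12680303, and the 37 members together held 2598 to 17574 counts per library. The 8 most abundant gene models took 42% to 80.4% of the counts, most in rev clone 8 replicate 2, and the TMM factors that correct for such differences ran from 0.463 to 1.47. In each library 3 counts corresponded to 0.213 to 1.35 CPM (counts per 1000000 of the TMM-scaled total), the lowest level that can be told from absence. The 8 stem cell markers Pou5f1, Sox2, Nanog, Esrrb, Zfp42, Tfcp2l1, Klf4 and Tdgf1 summed to 1594 to 2310 CPM per library. The markers of other lineages were low: primitive endoderm summed to 3.26 to 7.21 CPM, fibroblast to 2.44 to 8.56 CPM, and the neural set, to which Nes belongs, to 26.1 to 47.8 CPM. The trophoblast markers Cdx2, Eomes and Elf5 summed to 3.86 to 7.88 CPM at 0h, 6.32 to 12.3 CPM at 2h, 9.47 to 15.4 CPM at 4h and 6.79 to 11.8 CPM in rev, so the 4h libraries lay above all 0h libraries. The mesoderm markers T, Mixl1 and Tbx6 summed to 3.1 to 5.7 CPM at 0h, 2.49 to 9.63 CPM at 2h, 8.16 to 20.9 CPM at 4h and 2.15 to 6.72 CPM in rev, and none of these lineage markers was at 0 counts in a whole group. Their part in the results below was not tested.

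Before induction the members differed widely in level. On the scale of TMM-scaled CPM per kb of exon, which allows levels of different genes to be compared, Gab1 stood first at 25.8 ± 0.911 (SD, n = 4); it encodes a docking protein that binds GRB2 and the phosphatase SHP2. The ribosomal S6 kinase Rps6ka1 followed at 13.9 CPM per kb, the MEK kinase Map2k1 at 13.3, the adaptor Grb2 at 13, the repressor Cic at 12.1, the MNK kinase Mknk2 at 11.5 and Nras at 10. Rasa2 at 0.476 CPM per kb and Gab2 at 0.252 CPM per kb were lowest. Neighbours in the order were mostly not separable: the 4 libraries of a gene stood clear of those of the next gene in 4 places, between Gab1 and Rps6ka1, between Nras and Map2k2, between Rasal2 and Frs3, and between Rasa2 and Gab2. The summed level of all 37 members was 1137 ± 36.6, 1179 ± 49.8, 1173 ± 39.4 and 1195 ± 21.9 CPM at 0h, 2h, 4h and rev (SD, n = 4 each). In bulk RNA a lower value from fewer cells that express a gene and one from less RNA per cell cannot be told apart, and this holds for every difference given here.

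**Figure D1:**
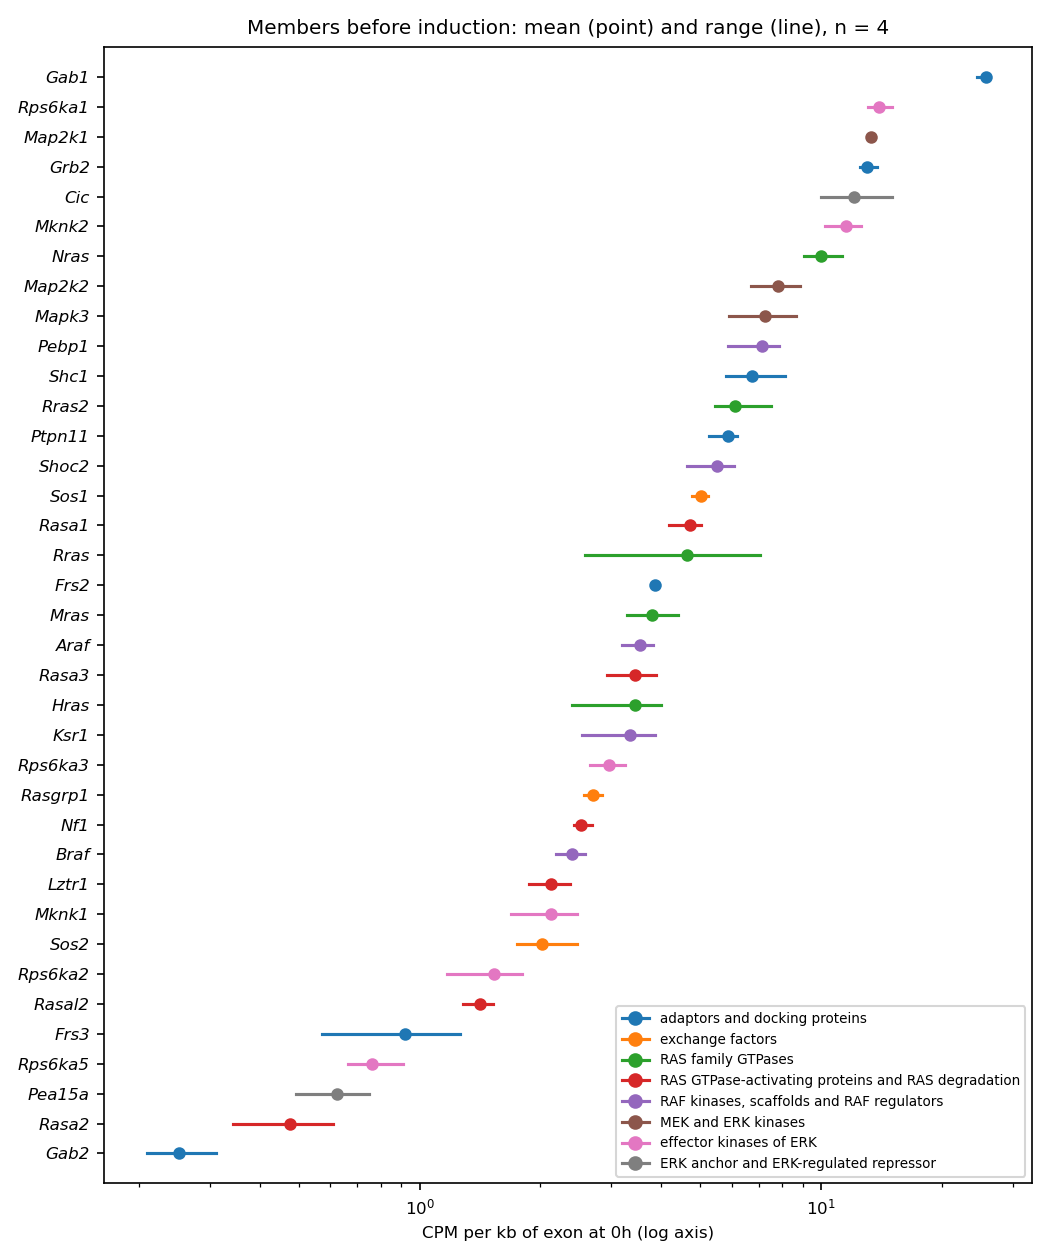
Level of each of the 37 members at 0h in TMM-scaled CPM per kb of exon on a log axis; points are means, lines run from the lowest to the highest of 4 libraries, and colours mark the role. Gab1 at 25.8 CPM per kb stands apart at the top, Gab2 at 0.252 CPM per kb at the bottom, and most neighbours overlap.

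Induction changed the RNA of some members in both directions. All tests are edgeR quasi-likelihood tests with a clone term, fitted on all 12215 genes with Benjamini-Hochberg adjustment and a threshold of 0.05; differences are log2 fold changes with their standard errors. At 2h against 0h, 10 of 37 members passed, a share of 27% where 21.1% of all genes tested passed; 6 were higher (all genes 11.4%) and 4 lower (9.68%). At 4h against 0h it was 15 members (40.5%, all genes 33.9%), 8 higher (all genes 17.2%) and 7 lower (16.8%). Between 2h and 4h, 2 members passed (5.41%, all genes 7.32%), both lower at 4h (all genes 3.52%). After MEK inhibition, rev against 4h, 5 members passed (13.5%, all genes 16.4%), 3 higher (all genes 7.93%) and 2 lower (8.43%). These 4 shares were near those of all genes and say nothing particular about the cascade. In rev against 0h, 13 members passed, 35.1% where all genes gave 22.3%, 6 of them higher (all genes 12.4%) and 7 lower (9.86%). The members' median absolute log2 fold change was 0.29 and that of all genes 0.22, given as a description. Each group enters more than 1 of these comparisons, so they are not independent and their values are given side by side.

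Most members moved little. The median log2 fold change of the members at 4h against 0h was -0.04, with -0.02 for all genes, and the median absolute change was 0.24, with 0.25 for all genes; the range ran from -2.06 (Rasgrp1) to 0.91 (Rasa2). The libraries of the groups did not overlap for 5 members higher and 4 lower at 2h against 0h (all genes 15.4% in either direction), 4 and 5 at 4h against 0h (23.2%), 1 and 3 at 4h against 2h (8.35%), 1 and 1 at rev against 4h (13.3%), and 3 and 6 at rev against 0h (16.8%). The calls depend on the composition correction: library size alone kept 12 of 51 member calls. With it the median of all genes moved to -0.41 at rev against 4h and to -0.32 at rev against 0h. At 2h against 0h that median was -0.01. The members that lost their call there ran from -0.51 (Ksr1) to 0.60 (Rasa2) with library size alone, close to their TMM values given below. At 2h calls were thus lost with little change in size. Of all calls at rev against 4h, 48.5% were higher with TMM and 3.3% with library size alone; at rev against 0h it was 55.8% and 10.4%, at 4h against 2h 51.9% and 88%, and at 4h against 0h 50.6% and 62.9%.

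**Figure D2:**
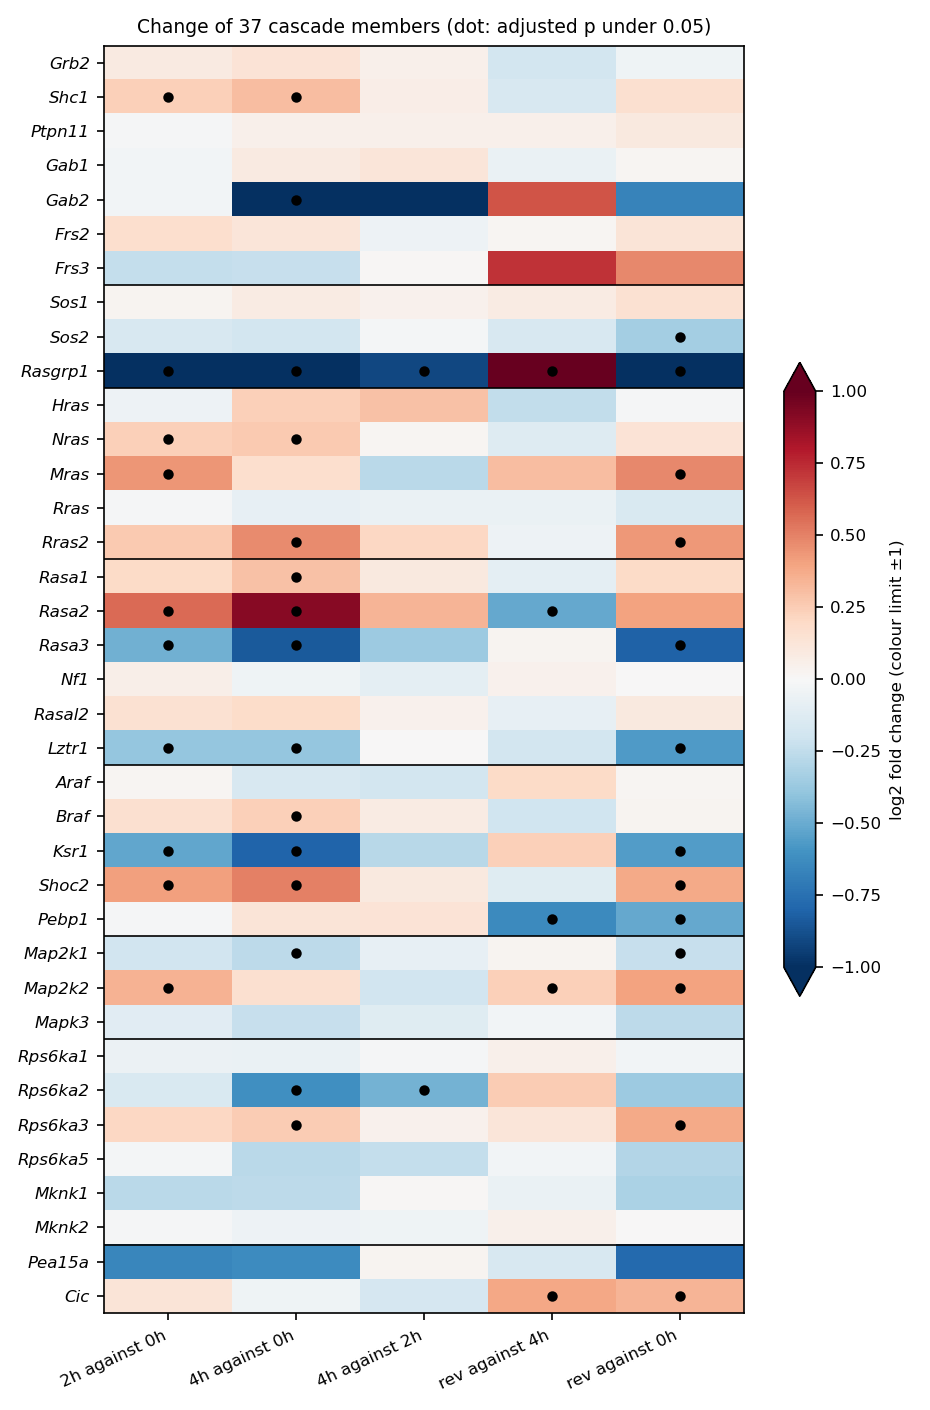
Log2 fold change of the 37 members (rows, grouped by role) in 5 comparisons (columns), with colour limited to ±1; a dot marks an adjusted p under 0.05. Rasgrp1 is marked in all 5 columns, and 15 members carry a dot at 4h against 0h but 5 at rev against 4h.

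Among the adaptors and docking proteins, Shc1 rose and Gab2 fell, and the other 5 did not pass in any of the 5 comparisons between groups. Shc1, whose protein links activated receptors to GRB2, averaged 37.9 ± 5.66, 43.8 ± 2.18, 46.3 ± 5.58 and 42 ± 1.68 CPM at 0h, 2h, 4h and rev (SD, n = 4). It was higher at 2h by 0.24 (SE 0.08, adjusted p = 0.0332) and at 4h by 0.31 (SE 0.08, adjusted p = 0.00361), with overlapping libraries both times. The 2h call was lost on leaving out 0h clone 4 replicate 2, either 0h library of clone 8, 2h clone 4 replicate 1 or either 2h library of clone 8 (adjusted p 0.0615 to 0.123). Library size alone kept neither call of Shc1, though the values were no smaller or nearly the same, 0.23 at 2h (adjusted p = 0.874) and 0.41 at 4h (adjusted p = 0.334). Grb2, Ptpn11 (the phosphatase SHP2), Gab1, Frs2 and Frs3 (docking proteins of FGF receptors) had values between -0.24 and 0.72, both from Frs3, at 2h against 0h and rev against 4h (adjusted p = 0.558 and 0.0688). Frs3 averaged 2.88 CPM at 0h, and 18.5% of its exon length overlaps other gene models, Tomm6os on the same strand and Frs3os on the opposite strand, so its counts may hold reads of those genes.

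Gab2, a docking protein related to GAB1 (chr7:97081586-97308946, plus strand, mm10), was close to the limit of detection, with 140 counts over all 16 libraries. Per-library values are given throughout in the order clone 4 replicates 1 and 2, then clone 8 replicates 1 and 2. Gab2 stood at 1.36, 1.64, 1.29 and 1.92 CPM at 0h, at 2.46, 1.31, 1.1 and 1.35 CPM at 2h, at 0.66, 0.701, 0.19 and 1.58 CPM at 4h, and at 1.71, 1.52, 0.331 and 0 CPM in rev. In 3 of 4 libraries at 4h it was below every 0h library, the other lay inside the 0h range, and in rev the clone 4 libraries were high and the clone 8 libraries low. The 4h value was lower than 0h by -1.29 (SE 0.45, adjusted p = 0.024). This call was lost on leaving out 0h clone 8 replicate 2, either 4h library of clone 4 or 4h clone 8 replicate 1 (adjusted p 0.0733 to 0.124). It was also lost with library size alone (-1.10, adjusted p = 0.152). The 0 counts of rev clone 8 replicate 2 allow up to 1.35 CPM.

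Rasgrp1 changed most of all members. It encodes a RAS exchange factor that is activated by diacylglycerol and calcium, best known from lymphocytes, and lies at chr2:117279993-117343001 (minus strand, mm10). Its level was 15.2, 16, 15.1 and 14.3 CPM at 0h and 6.73, 7.88, 6.25 and 7.03 CPM at 2h. At 4h it was 2.64, 3.27, 4.75 and 5 CPM, and in rev 8.63, 7.82, 6.63 and 4.96 CPM. All libraries at 2h lay below all at 0h, and all at 4h below all at 2h; in rev all but the second clone 8 library lay above every 4h library, and none reached the 0h range. The fall was -1.15 at 2h (SE 0.14, adjusted p = 2.4e-07) and -2.06 at 4h (SE 0.17, adjusted p = 1.2e-11), with -0.91 between 2h and 4h (SE 0.19, adjusted p = 0.00159). After MEK inhibition it rose by 1.03 from 4h (SE 0.20, adjusted p = 2.7e-04) and stayed lower than 0h by -1.03 (SE 0.15, adjusted p = 9.7e-06). Library size alone gave 0.58 for the rise from 4h (adjusted p = 0.136) and -0.78 between 2h and 4h (adjusted p = 0.366), so both calls of Rasgrp1 were lost, and it kept those at 2h, 4h and rev against 0h. By clone, the rise from 4h to rev was 1.49 in clone 4 (adjusted p = 1.8e-05) and 0.34 in clone 8 (adjusted p = 0.564); the difference between clones, -1.16 (SE 0.37), had an unadjusted p of 0.00351 and an adjusted p of 0.751 over all genes.

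The other exchange factors, Sos1 and Sos2, are the ones that GRB2 brings to RAS. Sos1 averaged 53.3 ± 2.23, 55.5 ± 4.84, 57 ± 5.88 and 58 ± 10.4 CPM at 0h, 2h, 4h and rev, and passed in no comparison. Sos2 averaged 17.2 ± 2.83, 15.8 ± 0.476, 15.3 ± 0.643 and 13.6 ± 1.04 CPM at 0h, 2h, 4h and rev. Sos2 was lower in rev than at 0h by -0.34 (SE 0.12, adjusted p = 0.0343). The libraries did not overlap but nearly touched, as the lowest at 0h and the highest in rev both rounded to 14.9 CPM. The call was lost on leaving out 0h clone 8 replicate 2, rev clone 4 replicate 1 or either rev library of clone 8 (adjusted p 0.0557 to 0.201), with DESeq2 (0.0648) and with a covariate for the share that those 8 top gene models took of each library, the share covariate (0.0599). The Sos2 value with library size alone was -0.65 (adjusted p = 0.0809).

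Of the 5 RAS family GTPases, Nras and Rras2 rose at 4h against 0h, while Mras passed at 2h and in rev against 0h and differed between the clones at 4h. Nras averaged 53.5 ± 4.94, 61.5 ± 8.74, 63.6 ± 4 and 58.9 ± 4.02 CPM at 0h, 2h, 4h and rev. It was higher by 0.24 at 2h (SE 0.09, adjusted p = 0.0424) and by 0.26 at 4h (SE 0.09, adjusted p = 0.0178), with overlapping libraries. The 2h call of Nras was lost without any 1 of 8 libraries (0h clone 4 replicate 2, 0h clone 8 replicate 2, 2h clone 4 replicate 1, either 2h library of clone 8, 4h clone 4 replicate 2, 4h clone 8 replicate 1 or rev clone 4 replicate 1; adjusted p 0.0505 to 0.153), and the 4h call without 0h clone 4 replicate 2 or 4h clone 4 replicate 1 (adjusted p 0.0742 to 0.0898). Both calls of Nras were also lost with the share covariate (adjusted p = 0.0526 and 0.0782), and the 2h call with DESeq2 (0.0546). With library size alone both were lost at values of 0.21 at 2h (adjusted p = 0.899) and 0.36 at 4h (adjusted p = 0.414). Rras2, which encodes the RAS relative TC21, averaged 21.6 ± 3.41, 25.9 ± 0.172, 29.8 ± 5.35 and 30.1 ± 4.59 CPM at 0h, 2h, 4h and rev. Rras2 was higher by 0.47 at 4h (SE 0.11, adjusted p = 0.00167) and by 0.43 in rev against 0h (SE 0.12, adjusted p = 0.00933, but 0.0532 without 0h clone 4 replicate 2). Library size alone lost both calls, at 0.10 in rev (adjusted p = 0.809) and 0.56 at 4h (adjusted p = 0.156). The Rras2 libraries overlapped: both clone 8 libraries at 4h (25.4 and 25.8 CPM) and the first in rev (24.2 CPM) lay inside the 0h range of 19.3 to 26.7 CPM, and both clone 4 libraries at 4h (36.7 and 31.4 CPM) lay above it. Within clone 4 the 4h value of Rras2 was 0.77 (SE 0.14, adjusted p = 1.3e-04) and within clone 8 it was 0.15 (SE 0.15, adjusted p = 0.505), a difference between clones that did not pass (-0.62, SE 0.21, adjusted p = 0.192). Hras (12.8 ± 2.65 CPM at 0h, 15.4 ± 0.598 at 4h) and Rras (5.2 ± 2.3 CPM at 0h, 4.99 ± 1.15 at 4h) passed in no comparison.

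Mras was the member whose response differed between the clones. Its protein forms a complex with SHOC2 and the phosphatase PP1 that removes an inhibitory phosphate from RAF. Mras stood at 22.5, 18.9, 19.5 and 16.9 CPM at 0h, 22.3, 21.9, 27.2 and 31.5 CPM at 2h, 12.6, 16.1, 30 and 31.6 CPM at 4h, and 21.6, 23.9, 27.8 and 34.7 CPM in rev. At 4h both clone 4 libraries lay below every 0h library and both clone 8 libraries above. From 0h to 4h it fell by 0.51 in clone 4 (SE 0.16, adjusted p = 0.0185) and rose by 0.77 in clone 8 (SE 0.15, adjusted p = 2.2e-04). The difference between the clones was 1.27 (SE 0.22, adjusted p = 0.00636), 1 member of 37 (2.7%) where 0.311% of all genes passed this test. Library size alone gave 0.66 (adjusted p = 0.296), so the call of a difference rests on the composition correction. Between 4h and rev, clone 4 rose by 0.65 (SE 0.15, adjusted p = 0.00283) and clone 8 stood at -0.03 (adjusted p = 0.952), a difference that did not pass (-0.68, SE 0.21, adjusted p = 0.735). Over both clones Mras was higher at 2h by 0.44 (SE 0.15, adjusted p = 0.026) and in rev against 0h by 0.48 (SE 0.15, adjusted p = 0.0213). The 2h call was lost without either 0h library of clone 8, 2h clone 4 replicate 1 or 2h clone 8 replicate 2 (adjusted p 0.0629 to 0.246), and without 0h clone 8 replicate 2 alone the value was 0.27; the rev call was lost without either 0h library of clone 8, rev clone 4 replicate 2 or rev clone 8 replicate 2 (adjusted p 0.053 to 0.148), with a value of 0.32 without 0h clone 8 replicate 2. DESeq2 made neither call (adjusted p = 0.102 and 0.0579), nor did library size alone, with 0.42 at 2h (0.571) and 0.13 in rev (0.749).

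Among the proteins that switch off RAS, Rasa1 and Rasa2 rose while Rasa3 and Lztr1 fell. Rasa2, a GTPase-activating protein of the GAP1 family (chr9:96539300-96631617, minus strand, mm10), stood at 5.43, 7.61, 9.65 and 7.48 CPM at 0h and 10.1, 12.7, 11.5 and 12.4 CPM at 2h. At 4h Rasa2 was 11.9, 15.4, 12.7 and 16.8 CPM, and in rev 8.21, 8.04, 12.1 and 13.5 CPM. All libraries at 2h and at 4h lay above all at 0h; in rev the clone 4 libraries were back inside the 0h range and the clone 8 libraries were not. The rise was 0.57 at 2h (SE 0.15, adjusted p = 0.00613) and 0.91 at 4h (SE 0.15, adjusted p = 1.5e-05). The 2h call was lost without 0h clone 8 replicate 2 (adjusted p = 0.0512) and with library size alone (0.60, adjusted p = 0.287). From 4h to rev Rasa2 fell by 0.51 (SE 0.15, adjusted p = 0.0161). This call was lost without 4h clone 4 replicate 2 or either rev library of clone 4 (adjusted p 0.0559 to 0.11) and without the clone term (0.115). Over the alternative fits the value ran from -0.92 to -0.39. The fall was -0.74 within clone 4 (adjusted p = 0.00872) and -0.21 within clone 8 (adjusted p = 0.651), and the difference between clones was 0.53 (SE 0.29, adjusted p = 0.856).

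Rasa3, another GAP1 family member, which also acts on RAP proteins, lies at chr8:13566948-13677603 (minus strand, mm10) and moved the other way. It stood at 19.3, 14.9, 16.1 and 19.8 CPM at 0h and 9.84, 11.8, 14.4 and 14.1 CPM at 2h. At 4h Rasa3 was 7.26, 8.64, 10.6 and 12.9 CPM, and in rev 7.89, 7.6, 12.6 and 11.7 CPM. Every library of the 3 later groups lay below every 0h library, and in each of those groups both clone 8 libraries lay above both clone 4 libraries. The fall was -0.48 at 2h (SE 0.12, adjusted p = 0.00462), -0.84 at 4h (SE 0.13, adjusted p = 8.1e-06) and -0.81 in rev against 0h (SE 0.14, adjusted p = 6.1e-05). With library size alone the 2h value stayed at -0.48, though its call was lost (adjusted p = 0.456). That call was also lost without the clone term (0.124). From 4h to rev the value was 0.03 (SE 0.15, adjusted p = 0.926), so no return was detected.

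Lztr1 encodes a substrate receptor of a ubiquitin ligase that targets RAS proteins (chr16:17508688-17526333, plus strand, mm10). It stood at 12.5, 14.5, 11.4 and 13.8 CPM at 0h, 10.6, 15.8, 9.38 and 8.45 CPM at 2h, 9.9, 11.1, 9.3 and 10.5 CPM at 4h, and 9.49, 7.6, 8.95 and 10.4 CPM in rev. The second clone 4 library at 2h was the highest of all 16, the other 3 at 2h lay below the 0h range, and no library at 4h or in rev reached that range. Lztr1 was lower by -0.39 at 2h (SE 0.14, adjusted p = 0.0379), by -0.39 at 4h (SE 0.14, adjusted p = 0.0305) and by -0.57 in rev (SE 0.15, adjusted p = 0.00573). The 2h call was lost without 0h clone 4 replicate 2, 0h clone 8 replicate 2, 2h clone 4 replicate 1 or either 2h library of clone 8 (adjusted p 0.0765 to 0.175), and the 4h call without 0h clone 4 replicate 2, 0h clone 8 replicate 2, 4h clone 4 replicate 1 or 4h clone 8 replicate 1 (adjusted p 0.0697 to 0.117). Both were also lost with the share covariate (adjusted p = 0.0513 and 0.136), the 2h call with DESeq2 (0.0687), and both with library size alone (-0.32 and -0.26, adjusted p = 0.774 and 0.626). Rasa1, the GTPase-activating protein known as p120 RasGAP, averaged 34.5 ± 2.63, 39.5 ± 2.04, 42.7 ± 0.982 and 39.4 ± 5.96 CPM at 0h, 2h, 4h and rev. It was higher at 4h by 0.29 (SE 0.08, adjusted p = 0.00782) with no overlap. With library size alone the Rasa1 value was 0.40 and the call was lost (adjusted p = 0.358). Nf1 (neurofibromin) and Rasal2 passed in no comparison; Nf1 averaged 40.2 ± 1.8 CPM at 0h and 39.2 ± 4.51 at 4h, and Rasal2 19.4 ± 1.55 and 21.8 ± 0.857 CPM.

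The promoters of the exchange factor and the pair of GTPase-activating proteins with the most significant changes at 4h against 0h are shown because Rasgrp1 and Rasa3 fell while Rasa2 rose. Each sequence is the part of the 250 bases before the RefSeq transcription start that lies outside the gene's own GENCODE model, read 5′ to 3′ on the gene's strand from RefSeq tables of GRCm38.p6 (the mm10 assembly). Capitals mark matches to a CCAAT box (CCAAT) or a GC box (GGGCGG) on either strand.
Rasgrp1 (chr2:117343002-117343127, minus strand): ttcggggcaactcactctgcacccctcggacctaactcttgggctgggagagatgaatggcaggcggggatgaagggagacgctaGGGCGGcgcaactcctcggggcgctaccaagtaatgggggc
Rasa3 (chr8:13677604-13677837, minus strand): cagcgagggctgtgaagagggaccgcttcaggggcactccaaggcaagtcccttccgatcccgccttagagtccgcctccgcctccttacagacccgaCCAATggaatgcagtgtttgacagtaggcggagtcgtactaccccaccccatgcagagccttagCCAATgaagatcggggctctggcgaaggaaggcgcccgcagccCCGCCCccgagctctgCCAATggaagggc
Rasa2 (chr9:96631618-96631753, minus strand): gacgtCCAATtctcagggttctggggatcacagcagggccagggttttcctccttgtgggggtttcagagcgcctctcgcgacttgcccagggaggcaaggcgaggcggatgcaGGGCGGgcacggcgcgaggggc

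The stretch before Rasgrp1 held 1 GC box and no CCAAT box, that before Rasa3 3 CCAAT boxes and 1 GC box, and that before Rasa2 1 of each. None of the 3 held an ETS site (CCGGAAG), an AP-1 site (TGANTCA), an E box (CACGTG) or a CArG box, and this holds for their full 300-base windows (250 bases before to 50 after the start). RefSeq windows were found for 34 of the 37 members, 45 windows in all. An ETS site was in 13.3% of these and in 8.86% of all 32851 windows, an AP-1 site in 4.44% and 7.81%, an E box in 8.89% and 7.15%, and a CArG box in 2.22% and 1.63%. A CCAAT box was in 51.1% of the member windows and in 37.4% of all, and a GC box in 68.9% and 35.7%; these last motifs were added after the sequences had been seen. A match to these letters is a description of the window, not a binding site.

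At the level of RAF, Shoc2 rose and Ksr1 fell at 4h, and Pebp1 fell after MEK inhibition. Braf rose at 4h in the clone 4 libraries alone. Ksr1, a scaffold that holds RAF, MEK and ERK together (chr11:79013440-79146407, minus strand, mm10), stood at 27.4, 26.6, 18 and 22.8 CPM at 0h and 18.1, 16.6, 13.6 and 17 CPM at 2h. At 4h Ksr1 was 11, 14.6, 12 and 18.2 CPM, and in rev 14.8, 15.6, 19.7 and 11.7 CPM. The first clone 8 library was the lowest at 0h; 1 library of each later group lay above it, and all lay below the other 0h libraries. Ksr1 fell by 0.52 at 2h (SE 0.13, adjusted p = 0.00467), by 0.80 at 4h (SE 0.14, adjusted p = 4.3e-05) and by 0.56 in rev against 0h (SE 0.14, adjusted p = 0.00476). From 4h to rev the value was 0.24 (SE 0.16, adjusted p = 0.311). The 2h and 4h calls of Ksr1 were lost with library size alone, at values of -0.51 at 2h (adjusted p = 0.385) and -0.66 at 4h (adjusted p = 0.078).

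Shoc2, the scaffold that works with MRAS and PP1 on RAF (chr19:53944306-54033133, plus strand, mm10), stood at 32.3, 30.4, 25.9 and 33.8 CPM at 0h and 36.2, 43.4, 38.1 and 45.8 CPM at 2h. At 4h Shoc2 was 41.4, 43.3, 43.1 and 46.8 CPM, and in rev 37.9, 44.5, 39.3 and 37.9 CPM. Every later library lay above every 0h library. It was higher by 0.41 at 2h (SE 0.09, adjusted p = 0.00141), by 0.50 at 4h (SE 0.09, adjusted p = 7.1e-05) and by 0.38 in rev (SE 0.10, adjusted p = 0.00414), and from 4h to rev the value was -0.12 (SE 0.09, adjusted p = 0.406). All 3 calls of Shoc2 were lost with library size alone, at values of 0.43 at 2h (adjusted p = 0.517), 0.61 at 4h (0.0949) and 0.07 in rev (0.866).

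Pebp1 encodes the RAF kinase inhibitor protein, which binds RAF and keeps it from MEK (chr5:117282654-117287625, minus strand, mm10). It stood at 13.9, 12.8, 13.3 and 10.4 CPM at 0h, 11.3, 12.3, 12.3 and 12.6 CPM at 2h, 15, 13.3, 12.2 and 13.7 CPM at 4h, and 8.42, 10.2, 7.79 and 9.01 CPM in rev. The rev libraries lay below all 12 others, which overlapped one another. Pebp1 was lower in rev by -0.64 against 4h (SE 0.14, adjusted p = 8.8e-04) and by -0.51 against 0h (SE 0.14, adjusted p = 0.00706). Over the alternative fits these values ran from -1.05 to -0.59 and from -0.82 to -0.46. Of the 50-base stretches of Pebp1, 22.1% also occur in 2 other gene models, so its counts may depend on how shared reads were treated. Braf averaged 33.2 ± 2.99, 37.4 ± 1.94, 39.2 ± 4.87 and 33.7 ± 4.07 CPM at 0h, 2h, 4h and rev, and was higher at 4h by 0.24 (SE 0.09, adjusted p = 0.0451). Only 2 of 4 same-numbered libraries were higher, both of clone 4 (30.4 and 30.7 CPM at 0h, 42.8 and 43.9 CPM at 4h). Clone 8 stood at 35.7 and 35.8 CPM at 0h and at 34.9 and 35 CPM at 4h. The difference in response between the clones did not pass for Braf. Its 4h call was lost without either 0h library of clone 4, 2h clone 4 replicate 1 or either 4h library of clone 4 (adjusted p 0.0517 to 0.212). It was also lost with DESeq2 (0.0642) and with library size alone (0.33, adjusted p = 0.476). With the share covariate the Braf value was 0.11 (adjusted p = 0.357). Araf, the third RAF kinase, averaged 23.1 ± 1.72 CPM at 0h and 20.8 ± 1.04 at 4h and passed in no comparison.

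**Figure D3:**
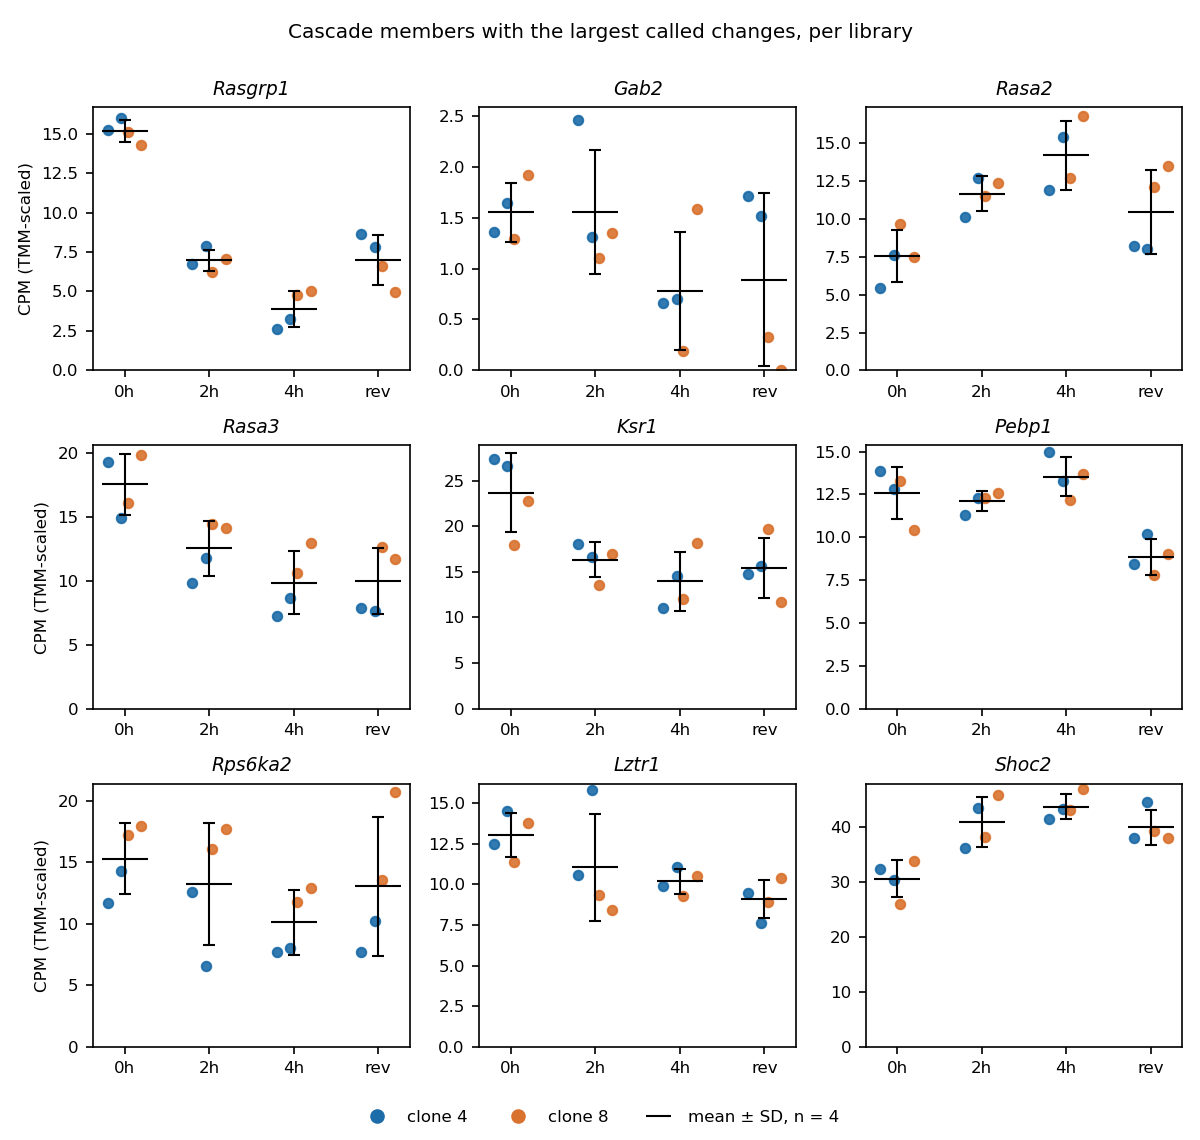
TMM-scaled CPM of the 9 members with a called log2 fold change of at least 0.5 in size, per library (points, coloured by clone) with mean and SD (n = 4) for 0h, 2h, 4h and rev. Rasgrp1 falls from 14.3 to 16 CPM at 0h to 2.64 to 5 CPM at 4h, and the rev libraries of Pebp1 lie below those of the other groups.

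The genes of both MEK kinases passed the test, in opposite directions. Map2k1 (MEK1) averaged 45.3 ± 0.659, 39.2 ± 1.77, 37.7 ± 3.21 and 38.8 ± 3.7 CPM at 0h, 2h, 4h and rev, and all later libraries lay below all 0h libraries. It was lower by -0.26 at 4h (SE 0.08, adjusted p = 0.0115) and by -0.23 in rev (SE 0.08, adjusted p = 0.0433). The 2h value was -0.19 (adjusted p = 0.0895). The 4h call was lost without 4h clone 8 replicate 1 (0.0723) and without the low-count filter (0.0638). The rev call was lost without any 1 of the 4 0h libraries, rev clone 4 replicate 2 or rev clone 8 replicate 1 (adjusted p 0.0582 to 0.22), with the share covariate (0.065) and with DESeq2 (0.0571). It was also lost without the low-count filter (0.152) and without the clone term (0.0924). Library size alone moved Map2k1 to -0.16 at 4h (adjusted p = 0.768) and to -0.56 in rev (0.113). Map2k2 (MEK2) averaged 44.1 ± 5.09, 56.3 ± 3.53, 48.7 ± 2.33 and 58.1 ± 5.38 CPM at 0h, 2h, 4h and rev. The 2h and rev libraries of Map2k2 lay above every 0h library, by 0.35 (SE 0.08, adjusted p = 0.00225) and 0.40 (SE 0.09, adjusted p = 9.1e-04), and at 4h the value was 0.16 (adjusted p = 0.155). Both calls were lost with library size alone, with 0.36 at 2h (adjusted p = 0.655) and 0.08 in rev (0.843). Map2k2 was also higher in rev than at 4h by 0.24 (SE 0.08, adjusted p = 0.0449), but this turned to -0.18 with library size alone and was lost without any 1 of 11 libraries (adjusted p 0.0537 to 0.218), namely 0h clone 4 replicate 2, 2h clone 4 replicate 1, either 2h library of clone 8, any 4h library, rev clone 4 replicate 2 or either rev library of clone 8. It was also lost with the share covariate (adjusted p = 0.22) and with DESeq2 (0.0728). Mapk3, which encodes ERK1, averaged 16.4 ± 2.61, 14.3 ± 2.71, 13.9 ± 0.867 and 13.6 ± 1.85 CPM at 0h, 2h, 4h and rev and passed in no comparison.

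Of the 6 effector kinases, Rps6ka3 rose and Rps6ka2 fell. Rps6ka2 encodes the ribosomal S6 kinase RSK3 (chr17:7170115-7303315, plus strand, mm10) and stood at 11.7, 14.3, 17.2 and 18 CPM at 0h and 12.6, 6.57, 16.1 and 17.7 CPM at 2h. At 4h Rps6ka2 was 7.7, 8.06, 11.8 and 12.9 CPM, and in rev 7.68, 10.2, 13.6 and 20.7 CPM. In each group both clone 8 libraries lay above both clone 4 libraries, and within each clone the 4h libraries lay below the 0h libraries. It was lower at 4h by -0.61 against 0h (SE 0.15, adjusted p = 0.00145) and by -0.47 against 2h (SE 0.15, adjusted p = 0.0445). The call against 2h was lost without any 1 of 10 libraries (adjusted p 0.0523 to 0.196), namely 0h clone 4 replicate 2, 2h clone 4 replicate 1, either 2h library of clone 8, any 4h library, rev clone 4 replicate 2 or rev clone 8 replicate 1, with the share covariate (0.0784) and with DESeq2 (0.071). Neither call of Rps6ka2 held with library size alone, at -0.51 against 0h (adjusted p = 0.245) and -0.33 against 2h (adjusted p = 0.995). Both were also lost without the clone term (0.0726 and 0.353). Of the 50-base stretches of Rps6ka2, 19.4% also occur in other gene models.

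Rps6ka3, the gene of RSK2, averaged 24.7 ± 2.06, 28.9 ± 2.78, 29.7 ± 4.12 and 32.2 ± 5.27 CPM at 0h, 2h, 4h and rev. It was higher by 0.25 at 4h (SE 0.09, adjusted p = 0.0249) and by 0.38 in rev against 0h (SE 0.09, adjusted p = 0.00235), where the libraries did not overlap. The 4h call was lost without either 0h library of clone 4, 4h clone 4 replicate 2 or 4h clone 8 replicate 2 (adjusted p 0.0515 to 0.0765) and with the share covariate (0.113). Both calls of Rps6ka3 were lost with library size alone, at 0.36 at 4h (adjusted p = 0.428) and 0.06 in rev (0.887). Rps6ka1 (RSK1), Rps6ka5 (MSK1), Mknk1 and Mknk2 (kinases of the translation factor eIF4E) passed in no comparison. Their values lay between -0.32 (Mknk1, rev against 0h, adjusted p = 0.134) and 0.05 (Rps6ka1, rev against 4h, adjusted p = 0.741).

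Cic encodes a repressor of ETS factor genes that ERK signalling relieves, and stood at 154, 123, 103 and 117 CPM at 0h, 134, 126, 126 and 150 CPM at 2h, 109, 121, 126 and 124 CPM at 4h, and 147, 159, 159 and 163 CPM in rev. The rev libraries lay above all 4h libraries, and at 0h the first clone 4 library was inside the rev range. Cic was higher in rev by 0.39 against 4h (SE 0.09, adjusted p = 0.00224) and by 0.34 against 0h (SE 0.09, adjusted p = 0.00493), while with library size alone the values were -0.05 against 4h (adjusted p = 0.887) and 0.02 against 0h (adjusted p = 0.959). With the share of the 8 most abundant models in the fit, the rev against 4h value was 0.30 (adjusted p = 0.0572). Pea15a, whose protein holds ERK in the cytoplasm, averaged 2.4 ± 0.481, 1.47 ± 0.432, 1.46 ± 0.35 and 1.46 ± 0.725 CPM at 0h, 2h, 4h and rev. The 2h and 4h libraries of Pea15a lay below all 0h libraries, with values of -0.65 (SE 0.27, adjusted p = 0.0852) and -0.63 (SE 0.30, adjusted p = 0.101) that did not pass.

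Level differences between the clones, averaged over the groups, passed for 6 of 37 members, a share of 16.2% where 29.1% of all genes passed; 4 were higher in clone 8 (all genes 15.4%) and 2 lower (13.7%). Rps6ka2 was higher in clone 8 by 0.62 (SE 0.10, adjusted p = 1.7e-05), Mras by 0.45 (SE 0.11, adjusted p = 0.00124), Rasa3 by 0.41 (SE 0.10, adjusted p = 0.00153) and Gab1 by 0.26 (SE 0.06, adjusted p = 3.6e-04). For Mras and Rasa3 this average is not a level difference present in every group: their 0h libraries overlapped between the clones, and in the other 3 groups both clone 8 libraries lay above both clone 4 libraries. Rps6ka3 was lower in clone 8 by -0.28 (SE 0.06, adjusted p = 7.3e-04) and Shc1 by -0.16 (SE 0.06, adjusted p = 0.0338). The Shc1 call was lost without any 1 of 7 libraries, 0h clone 4 replicate 1, 0h clone 8 replicate 1, 2h clone 4 replicate 1, 2h clone 8 replicate 1, 4h clone 4 replicate 2 or either 4h library of clone 8 (adjusted p 0.0515 to 0.0939) and with the share covariate (0.0811). Library size alone kept the Rps6ka3 call only; it gave 0.42 for Rps6ka2 (adjusted p = 0.0868), 0.18 for Mras (0.429), 0.18 for Rasa3 (0.462), 0.00 for Gab1 (0.988) and -0.42 for Shc1 (0.0594). Gab1 stood at 134, 124, 133 and 133 CPM at 0h, 112, 110, 134 and 155 CPM at 2h, 120, 118, 155 and 170 CPM at 4h, and 125, 125, 142 and 138 CPM in rev. At 0h the clones overlapped, and in the other groups both clone 8 libraries lay above both clone 4 libraries; the difference in response at 4h was 0.40 (SE 0.13, adjusted p = 0.189).

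**Figure D4:**
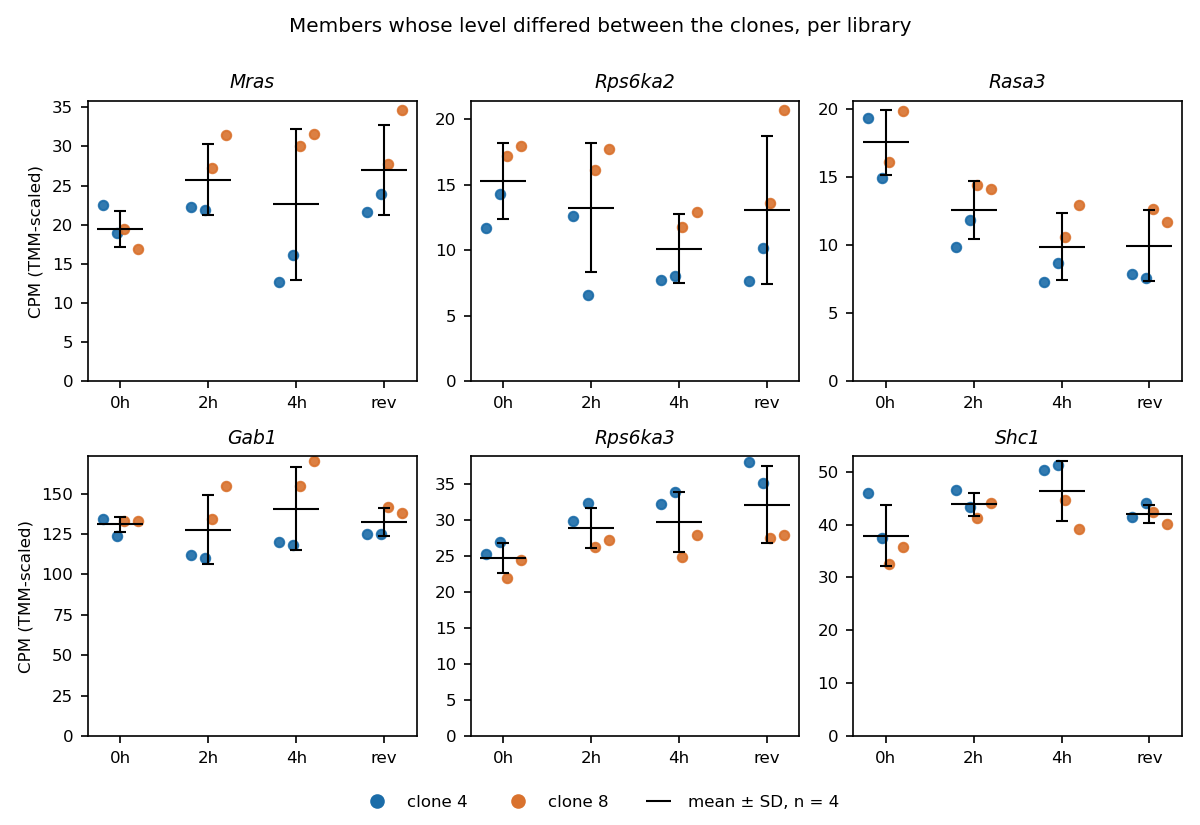
TMM-scaled CPM per library of the 6 members whose level differed between clone 4 and clone 8 (points, coloured by clone; bars are mean and SD, n = 4). Mras lies at 12.6 and 16.1 CPM in clone 4 and at 30 and 31.6 CPM in clone 8 at 4h.

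Beside the cascade's own genes stand the genes known to respond to it. Of 11 feedback inhibitors (the Sprouty, Spred and ERK phosphatase genes), 8 rose at 4h against 0h, with a median log2 fold change of 1.19, where 17.2% of all genes tested were called higher, and 7 fell in rev against 4h, with a median of -1.50, where 8.43% of all genes were called lower. Spry4 rose by 7.88 at 4h (SE 0.16, adjusted p = 4.6e-29) and Dusp6, the cytoplasmic ERK phosphatase, by 5.40 (SE 0.17, adjusted p = 8.1e-23). At 0h Spry4 had 3 to 11 counts per library, near the limit of detection, so the size of its change is uncertain. Of 12 genes known as ERK targets, most of which encode transcription factors (Ier3 does not), 10 were tested, and all 10 rose at 4h (median 1.80) and fell in rev against 4h (median -1.41). The medians of all genes were -0.02 at 4h against 0h and 0.01 at rev against 4h, and with library size alone the counts were 7 and 10 higher at 4h and 7 and 10 lower in rev. These lists were chosen with earlier results of these data known and are no independent evidence.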

How the data were processed

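RNA from 16 libraries (4 groups, 2 clones, 2 replicates each) was measured as counts per gene. The deposited counts are raw whole numbers; per the submitters' processing notes reads were handled with bcl2fastq 2.19.1 and STAR 2.5.3a on mm10, and the counting tool, annotation and strand setting are not given in the sources used here. Symbols, positions and exon lengths came from the GENCODE mouse annotation of the same assembly, which matched 52489 of the 52636 ids. Counts were filtered with filterByExpr (minimum count 10, 12215 genes kept), scaled by TMM and tested with edgeR 4.0.16 (quasi-likelihood, group and clone terms, all 16 libraries, 2-sided, R 4.3.3); standard errors are the log2 fold change over the square root of F, the biological coefficient of variation was 0.0796, and the code was first tested on data with known changes. Alternatives were RLE scaling, library size alone, other filters, other covariates, the compared groups alone, DESeq2 1.42.0, the 8 most abundant models removed, and each library left out. Members with an adjusted p under 0.05 and a log2 fold change of 0.5 or more in size in a comparison between groups are given per library; values of Mras, Cic and Gab1 were added after they were seen. The members and lists were chosen with earlier results of these data known. Libraries of 1 clone and group differed by more than sampling noise (chi-square per degree of freedom 2.78 to 68), so none was counted as a repeat of 1 library. This does not show that they were separate cultures. Floors of 3 counts cover counting error only.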

Additional observations from a re-analysis of the deposited data

Results flagged for a closer look

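Mras responded differently in the clones: the log2 fold change from 0h to 4h was larger in clone 8 than in clone 4 by 1.27 (SE 0.22, adjusted p = 0.00636 in an edgeR quasi-likelihood test of the interaction over all 12215 genes), with 2 libraries per clone and group. With library size alone the difference was 0.66 (adjusted p = 0.296).

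A single library stood far from the other 3 of its group in 4 of 148 member-by-group checks with Dixon's criterion, where chance alone gives about 1 in 20, or 7.4. These were Gab1 in 0h clone 4 replicate 2 (124 CPM, the others 133 to 134 CPM), Sos1 in rev clone 8 replicate 2 (42.4 CPM, the others 62.5 to 63.9 CPM), Nras in 2h clone 4 replicate 2 (48.6 CPM, the others 64.8 to 67.9 CPM) and Rras2 in 0h clone 8 replicate 1 (26.7 CPM, the others 19.3 to 20.4 CPM). The 2h library of Nras was the shallowest of the series, at 2172651 counts, and the rev library of Sos1 had the largest share of counts in the 8 most abundant models, 80.4%.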

How the results depend on the processing

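The 51 calls of members were checked under 27 settings, where a setting could be fitted, 1358 checks in all: 1168 stayed past the threshold in the same direction, 188 were lost and 2 turned. All 51 held with the 8 most abundant models removed and with a filter at a mean of 1 CPM, 50 with RLE factors, 42 with DESeq2, 41 without a filter, 39 with a covariate for the 8 models' share, 39 of 44 with only the compared groups, and 28 of 45 without the clone term. Library size alone kept 12 of 51; both turned values came from it, at rev against 4h, Map2k2 at -0.18 and Cic at -0.05, where the median of all genes stood at -0.41. The cause of the other losses was not tested.

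With library size alone the numbers of members higher and lower were 0 and 1 at 2h against 0h, 1 and 2 at 4h against 0h and 0 and 0 at 4h against 2h. They were 0 and 2 at rev against 4h, 0 and 5 at rev against 0h, and 0 and 1 at clone 8 against clone 4. Those of all genes higher and lower were, in the same order, 204 and 134, 554 and 327, 88 and 12, 57 and 1671, 105 higher at rev against 0h, and 288 higher in clone 8. The Mras difference between clones was 0.66 (adjusted p = 0.296). Without the clone term, members higher and lower were 3 and 2 at 2h, 5 and 4 at 4h, 1 lower at 4h against 2h and 1 lower at rev against 4h; all genes were 747 and 462, 1323 lower at 4h, 129 and 90 at 4h against 2h, 418 and 463 at rev against 4h, and 876 and 576 at rev against 0h. With the share covariate, 5 members were higher at 4h, 1 was lower at 4h against 2h, 1 was higher at rev against 4h and 1 lower in clone 8, and of all genes 577 were higher and 652 lower at rev against 4h. DESeq2 called 1 member lower at 4h against 2h. In clone 8, RLE factors called 4 members lower and the fit without a filter 1.

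Leaving out 1 library at a time gave 2 to 7 members higher at 2h against 0h, 5 to 8 higher and 4 to 7 lower at 4h against 0h, 1 to 3 lower at 4h against 2h, 1 to 2 lower at rev against 4h and 1 to 4 lower in clone 8. For all genes it gave 743 to 1286 lower at 2h against 0h, 303 to 510 higher and 260 to 457 lower at 4h against 2h, and 644 to 1026 higher at rev against 4h. The Mras difference ran from 1.12 to 1.47 (adjusted p 8.6e-04 to 0.0448). Where this left 1 library in a clone and group, it was taken to vary like the others.

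The labels do not say whether same-numbered libraries were paired. Deviations of same-numbered libraries of a clone had correlations of -0.23 to 0.139 over 12 pairs of groups. With 2 libraries per clone and group, these values can neither show nor exclude pairing. With a replicate block 41 of 45 member calls held; lost were Nras at 2h against 0h (adjusted p = 0.0585), Lztr1 at 2h against 0h (0.0612), Braf at 4h against 0h (0.0527) and Rps6ka2 at 4h against 2h (0.0526), so 1 member was lower at 4h against 2h, in place of 2. Without both the shallowest library and the one with the largest share of the 8 models, an alternative chosen after seeing the data as were those of the Mras difference, 48 of 51 held. Depth limits the rarest members: Gab2 had 0 to 19 counts per library.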

Other observations

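A list of 27 other genes, not among the 37 members, held relatives of members and other genes linked to the pathway. Among the latter were the PP1 genes Ppp1ca and Ppp1cb, the scaffold Iqgap1 and the Dok adaptors. Of the 27, 18 were tested. At 4h against 0h 2 rose (Cnksr3 and Dok2) and 4 fell (Rasgrp4, Rasa4, Dab2ip and Rps6ka4), where 17.2% of all genes were called higher and 16.8% lower. The share is near that of all genes and is no result about the list. With library size alone 1 rose and 2 fell. With TMM factors the 18 had a median log2 fold change of -0.19, and all genes -0.02. Rasgrp4, an exchange factor of the same family as Rasgrp1, fell by 1.39 at 4h (SE 0.29, adjusted p = 2.7e-04, edgeR quasi-likelihood test) and rose by 0.97 in rev against 4h (SE 0.31, adjusted p = 0.0289). It had 7 to 11 counts per library at 4h, and its rev and 4h libraries overlapped. Rasgrp2, of the same family, stood at 0.01 at 4h against 0h (adjusted p = 0.98) and at 0.00 in rev against 4h (adjusted p = 0.996). Rasa4, a GAP1 family gene like Rasa2 and Rasa3, fell by 1.04 at 2h (SE 0.14, adjusted p = 8.9e-07) and by 1.25 at 4h (SE 0.15, adjusted p = 7.4e-08); it rose in rev against 4h by 0.73 (SE 0.17, adjusted p = 0.00207) and was still lower there than at 0h by -0.52 (SE 0.14, adjusted p = 0.00876). Dok2, an adaptor that recruits RASA1, rose by 1.19 at 4h (SE 0.26, adjusted p = 5.3e-04) and was still higher in rev than at 0h by 1.07 (SE 0.27, adjusted p = 0.00412). It had only 8 to 15 counts per library at 0h and 4 to 36 in rev, and its libraries overlapped in both comparisons.

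Of 13 receptors and ligands upstream of the cascade, 8 were tested; 1 rose and 3 fell at 4h against 0h (all genes 17.2% higher, 16.8% lower), and 3 rose and 1 fell in rev against 4h (all genes 7.93% and 8.43%). With library size alone 1 rose and 1 fell in each comparison. With 8 genes tested these counts are a description. The ligand gene Fgf4 fell by 1.09 at 4h (SE 0.09, adjusted p = 3.5e-12, edgeR) and rose by 1.45 in rev against 4h (SE 0.09, adjusted p = 7.1e-15). Fgfr1, the main FGF receptor gene of these cells, fell by 0.37 (SE 0.08, adjusted p = 2.4e-04) and rose by 0.60 (SE 0.08, adjusted p = 4.7e-07), and Kit fell by 0.37 (SE 0.07, adjusted p = 8.9e-05) and rose by 0.32 (SE 0.07, adjusted p = 0.00139). Erbb3 rose by 0.69 at 4h (SE 0.09, adjusted p = 2.0e-07) and fell by 0.30 in rev against 4h (SE 0.09, adjusted p = 0.0157).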
